A study of Mus musculus with 32 samples.

Results

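UDP-glucuronosyltransferases (UGTs) and UDP-glucose dehydrogenase (Ugdh) form the glucuronidation arm of hepatic detoxification, and 10 genes of this arm were followed in livers that had lost Gclc, whose protein catalyses the first step of glutathione synthesis. The 10 genes were chosen by symbol from the 20821 symbols of the expression table. They are Ugdh, the Ugt1a genes Ugt1a1 and Ugt1a9, the Ugt2 genes Ugt2a3, Ugt2b1, Ugt2b5, Ugt2b34, Ugt2b35 and Ugt2b36, and Ugt3a2. All 10 were in the table and all passed the filter of a mean of at least 10 TPM, an abundance corrected for transcript length and scaled to the same total in every library. The table holds 22 rows in all for Ugdh and the UGT family.

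RNA-seq libraries came from livers of 4 Gclc KO mice (Gclc f/f Rosa26-CreERT2) and 4 Gclc WT mice (Gclc f/f), with 4 libraries per mouse. Adult mice of both genotypes carried floxed Gclc and received tamoxifen intraperitoneally, at 150 mg/kg for 5 days per the labels, and livers were taken 14 days later. CreERT2 was expressed from the ubiquitous Rosa26 locus, so Gclc was excised in the whole body and an effect of the liver cannot be told apart from one of other organs. The recombinase was present in Gclc KO mice alone, and what CreERT2 itself may do under tamoxifen cannot be told apart from the loss of Gclc. The sex of the mice is not in the labels.

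Glucuronidation joins glucuronic acid to drugs, bilirubin, steroids and bile acids, so that they can leave the hepatocyte in bile or blood. Ugdh makes the sugar donor, UDP-glucuronate, by oxidizing UDP-glucose in the cytosol. Most UGT enzymes sit in the membrane of the endoplasmic reticulum and use that donor inside it. The Ugt1a genes share their last exons and differ in a first exon that has its own promoter, whereas each Ugt2b gene is a separate transcription unit. NRF2, the oxidant-responsive transcription factor that KEAP1 holds in check, and the xenobiotic receptors AHR, CAR and PXR are known to regulate genes of this arm. Metabolites of tamoxifen, which all mice received, are themselves UGT substrates.

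The labels and the tissue were checked first. Gclc was present at 26.9, 16.1, 18.6 and 26.8 TPM in Gclc KO livers, against 82.3, 114.1, 77.8 and 138.4 TPM in Gclc WT livers (log2 fold change -2.17, limma adjusted p = 0.000441). Every Gclc KO mouse was below every Gclc WT mouse. The summed level of 8 hepatocyte markers was 71728.1 to 141349.5 TPM in Gclc KO livers and 71405.8 to 99858.2 TPM in Gclc WT livers, with overlapping genotypes. Alb alone, the gene of albumin, gave 53186.2 to 111673.1 TPM of the sum in Gclc KO livers and 46258.3 to 66972.5 TPM in Gclc WT livers. Of the 8 genes, 2 were called lower and none higher, namely Cps1 of the urea cycle (log2 fold change -0.72, adjusted p = 0.014) and Serpina1c, an antitrypsin gene (-0.62, adjusted p = 0.0466), both named after their values were seen. Serpina1c lost its call without any one of the mice except Gclc KO 1 (adjusted p = 0.0524 to 0.123) and in the mice without Xist (adjusted p = 0.204). Kupffer cell markers summed to 863.6 to 1448.3 TPM in Gclc KO livers, against 300.5 to 823.4 TPM in Gclc WT livers, and 5 of 10 were called higher in Gclc KO livers. Of all genes tested, 16.4% were called higher and 13% lower. In such bulk samples, fewer cells of a type and less RNA per cell cannot be told apart, and the part of these markers in the results was not tested. Pancreas markers summed to 6.86 to 18.9 TPM in Gclc KO livers, against 14.5 to 324.4 TPM in Gclc WT livers, of which Gclc WT 1 held the highest sum and no other exceeded 37.3 TPM. Their part in the results was not tested, and the calls given next for Ugdh, Ugt1a9, Ugt2b35 and Ugt2a3 held without Gclc WT 1. By the sex check genes 3 of the 8 mice stood apart. Gclc KO 2, Gclc KO 3 and Gclc WT 3 expressed Xist, the RNA of the inactive X chromosome, at 30.2, 22.8 and 25.7 TPM, and lacked the Y-linked Ddx3y, which the other 5 mice expressed at 22.6 to 32.7 TPM. Acute phase genes summed to 169692.1, 122855.4 and 69053.0 TPM in these 3 mice, above the 7219.8 to 61502.3 TPM of the other mice, so Xist status and acute phase level cannot be told apart here. The acute phase level also moved with genotype. Of its 7 genes, 4 were called higher in Gclc KO livers and none lower, against 16.4% and 13% of all genes tested. In the mice without Xist the acute phase sum was 61502.3 and 39829.7 TPM in Gclc KO livers, against 7219.8 to 9683.5 TPM in Gclc WT livers. Its part in the results was not tested. Values without these mice are given where they matter.

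Across the 10 genes, 3 rose in Gclc KO livers, 1 fell and 6 did not pass the test. The genes that rose were Ugdh, Ugt1a9 and Ugt2b35, and the one that fell was Ugt2a3. Of the 5893 genes tested by limma, 16.4% were called higher and 13% lower in Gclc KO livers, or 29.4% in either direction, where called means an adjusted p under 0.05. The 4 of 10 genes called thus stood near this background. The genotypes did not overlap over the 8 mice for 5 of the 10 genes, against 30.1% of all genes tested. The median log2 fold change of the 10 genes was 0.28, against 0.07 over all genes tested. All 4 calls held in each of the 23 alternative analyses, with log2 fold changes of 1.04 to 1.46 for Ugdh, 2.22 to 3.29 for Ugt1a9, 1.13 to 1.62 for Ugt2b35 and -1.94 to -1.56 for Ugt2a3.

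**Figure D1:**
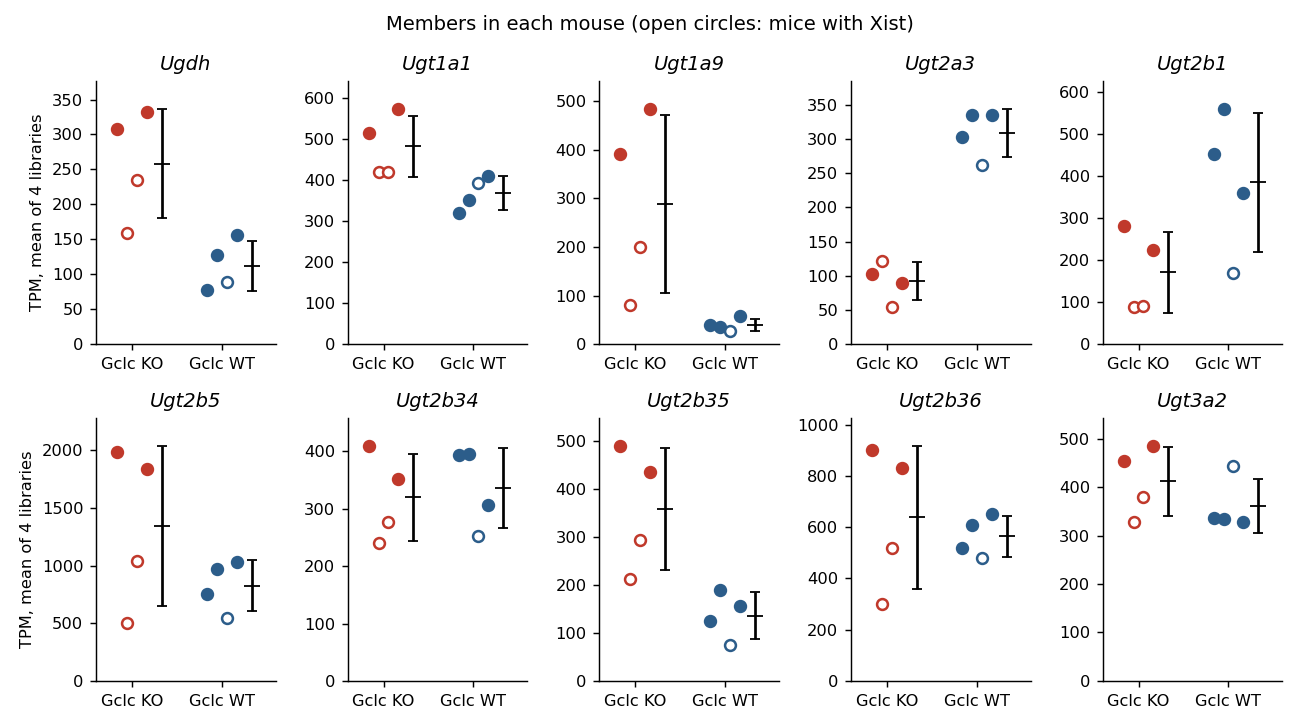
TPM of the 10 genes in each mouse (points, means of 4 libraries) with Gclc KO left of Gclc WT, and the mean and SD of 4 mice as a bar beside them. Open circles are the 3 mice with Xist. The genotypes separate fully for Ugdh, Ugt1a1, Ugt1a9, Ugt2a3 and Ugt2b35, and Gclc KO 2 is the lowest Gclc KO mouse for Ugdh, Ugt1a9, Ugt2b5 and Ugt2b35.

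Ugdh, which makes UDP-glucuronate, lies apart from the UGT clusters on chromosome 5 (GRCm38, chr5:65413221-65435949, minus strand). It was measured at 307.4, 159.3, 234.9 and 331.7 TPM in Gclc KO livers, against 78.1, 127.5, 88.7 and 155.5 TPM in Gclc WT livers. All Gclc KO mice were above all Gclc WT mice, though Gclc KO 2 stood only just above the highest Gclc WT mouse. Ugdh averaged 258.3 ± 77.8 TPM in Gclc KO livers and 112.4 ± 35.7 TPM in Gclc WT livers (SD, n = 4 each), a 2.28-fold rise (1.19 ± 0.28 on the log2 scale, SE, limma adjusted p = 0.0131).

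To describe the promoters of the 10 genes, called or not, the sequence before their start sites was searched for the core letters of 4 known elements, on both strands. These were the antioxidant response element that NRF2 binds (TGANNNNGC), the core that AHR binds (GCGTG), the hexamer of many nuclear receptors (AGGTCA) and a hexamer of HNF1 (GTTAAT), the last of which was added after the data had been seen. The windows were the 250 bases before the RefSeq start (GRCm38.p6), which were at hand for 9 of the 10 genes, Ugt3a2 excepted. Of 32851 such promoters, 35.2% held the antioxidant core, 28.2% the AHR core, 14% the receptor hexamer and 6.43% the HNF1 hexamer. A match is a description of the letters and not a binding site.

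Of the 9 genes, 2 held the antioxidant core, 1 the AHR core, 4 the receptor hexamer and 3 the HNF1 hexamer. Ugdh was the one with both the antioxidant core, at -132 to -124 and -94 to -86 from the RefSeq start, and the AHR core, of which 1 of 3 copies overlapped the second antioxidant match. The 110 bases of Ugdh that lie before the start in both RefSeq and GENCODE are shown to place these letters, with matches in capitals. They are chr5:65435950-65436059, minus strand, written from 5′ to 3′.
Ugdh: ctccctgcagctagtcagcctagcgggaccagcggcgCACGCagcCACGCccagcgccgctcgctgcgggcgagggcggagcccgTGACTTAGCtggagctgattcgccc
The first 2 capital stretches are the AHR core read on the opposite strand, and the third is the antioxidant core. The antioxidant match at -94 to -86 falls outside the stretch shown, past the start of the GENCODE gene model.

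In the Ugt1a cluster of chromosome 1 (GRCm38, plus strand), Ugt1a9 (chr1:88070800-88218997) rose and Ugt1a1 (chr1:88211959-88218997) did not pass the test. Ugt1a1, the enzyme that conjugates bilirubin, was measured at 515.7, 420.0, 421.3 and 573.2 TPM in Gclc KO livers, against 319.0, 352.0, 394.2 and 411.3 TPM in Gclc WT livers. The genotypes did not overlap, but Gclc KO 2 and Gclc KO 3 lay only just above the highest Gclc WT mouse. The log2 fold change was 0.38 (95% interval 0.05 to 0.71), which did not pass the test (limma adjusted p = 0.0827). It did pass when the values were rescaled by the trimmed mean of M values (log2 fold change 0.32, adjusted p = 0.042), by the median of ratios (adjusted p = 0.0435) or by the total without the 50 most abundant genes (adjusted p = 0.0221), and in the 5 mice without Xist (log2 fold change 0.60, adjusted p = 0.0232).

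Ugt1a9, which conjugates phenols, was measured at 391.5, 80, 200.1 and 483.5 TPM in Gclc KO livers, against 40, 35.8, 27.8 and 57.5 TPM in Gclc WT livers. Every Gclc KO mouse was above every Gclc WT mouse, and the Gclc KO mice differed 6.04-fold among themselves, with both Xist-positive mice lowest. The 5.91-fold rise was the largest change in either direction among the 10 genes (2.56 ± 0.50 on the log2 scale, SE, limma adjusted p = 0.0063). In the 5 mice without Xist its log2 fold change was 3.29. Ugt1a9 was the lowest of the 10 genes in Gclc WT livers and the seventh in Gclc KO livers.

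As Ugt1a1 and Ugt1a9 use the same last exons, their ratio within a mouse shows the unequal change of the pair. The Ugt1a9 level was 0.759, 0.19, 0.475 and 0.843 of the Ugt1a1 level in Gclc KO livers, against 0.125, 0.102, 0.0705 and 0.14 in Gclc WT livers. All 4 Gclc KO ratios were above all Gclc WT ratios. In the longest GENCODE transcripts, stretches of 50 bases shared with other UGT genes covered 59.1% of Ugt1a1 and 69.6% of Ugt1a9, so reads from the common exons must be divided among the genes by the quantifier and each single value is uncertain. The sum over the 8 Ugt1a rows depends less on that division. It came to 1352.3, 900.6, 948.5 and 1480.1 TPM in Gclc KO livers, against 700.1, 774.2, 762.0 and 895.8 TPM in Gclc WT livers. The Gclc KO sums were all higher, by 1.49-fold on average, although Gclc KO 2 exceeded Gclc WT 4 only slightly.

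The 110 bases before the starts of the 2 genes are shown because the genes share their 3′ exons but not this stretch (Ugt1a1, chr1:88211849-88211958, plus strand, and Ugt1a9, chr1:88070669-88070778, plus strand). Capitals mark the antioxidant core, on the opposite strand, at -82 to -74 and -53 to -45 of Ugt1a1, and the HNF1 hexamer, on the opposite strand, in both genes.
Ugt1a1: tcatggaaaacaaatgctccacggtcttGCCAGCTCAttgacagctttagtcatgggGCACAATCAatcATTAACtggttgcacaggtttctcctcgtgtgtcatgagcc
Ugt1a9: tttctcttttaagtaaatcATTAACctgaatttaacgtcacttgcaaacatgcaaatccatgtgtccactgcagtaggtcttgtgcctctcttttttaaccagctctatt
The antioxidant core was present in the window of Ugt1a1 and its letters were not in that of Ugt1a9. Whether these letters have a part in the levels of either gene was not tested. The receptor hexamer of Ugt1a9, at -201 to -196, lies before the stretch shown.

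The other Ugt1a genes were not called. Ugt1a6a, which conjugates small planar phenols, was measured at 78.9, 56.8, 55.2 and 79.2 TPM in Gclc KO livers and at 45.8, 52.4, 43.7 and 58.4 TPM in Gclc WT livers (log2 fold change 0.41, limma adjusted p = 0.0769), and it passed with Xist status as a covariate (0.51, adjusted p = 0.011). Ugt1a5 was measured at 35.6, 56.9, 29 and 42.5 TPM in Gclc KO livers and at 13.4, 20.8, 44.6 and 21.4 TPM in Gclc WT livers. Its genotypes overlapped through Gclc WT 3, and it passed without that mouse (log2 fold change 1.09, adjusted p = 0.00902, against 0.78 and adjusted p = 0.103 with all mice). Ugt1a6b averaged 285.6 ± 35.8 TPM in Gclc KO livers and 296.7 ± 41.2 TPM in Gclc WT livers (SD, n = 4 each, limma adjusted p = 0.811). Ugt1a10 and Ugt1a7c stayed below 5 TPM in every mouse, under the filter of 10 TPM, and were not called in a fit with a filter of 1 TPM (log2 fold changes 0.80 and 0.87, limma adjusted p = 0.0517 and 0.0605). Shared stretches of 50 bases covered 100% of the Ugt1a6a transcript, 91.7% of Ugt1a6b and 64.8% of Ugt1a5, so these values are uncertain too.

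**Figure D2:**
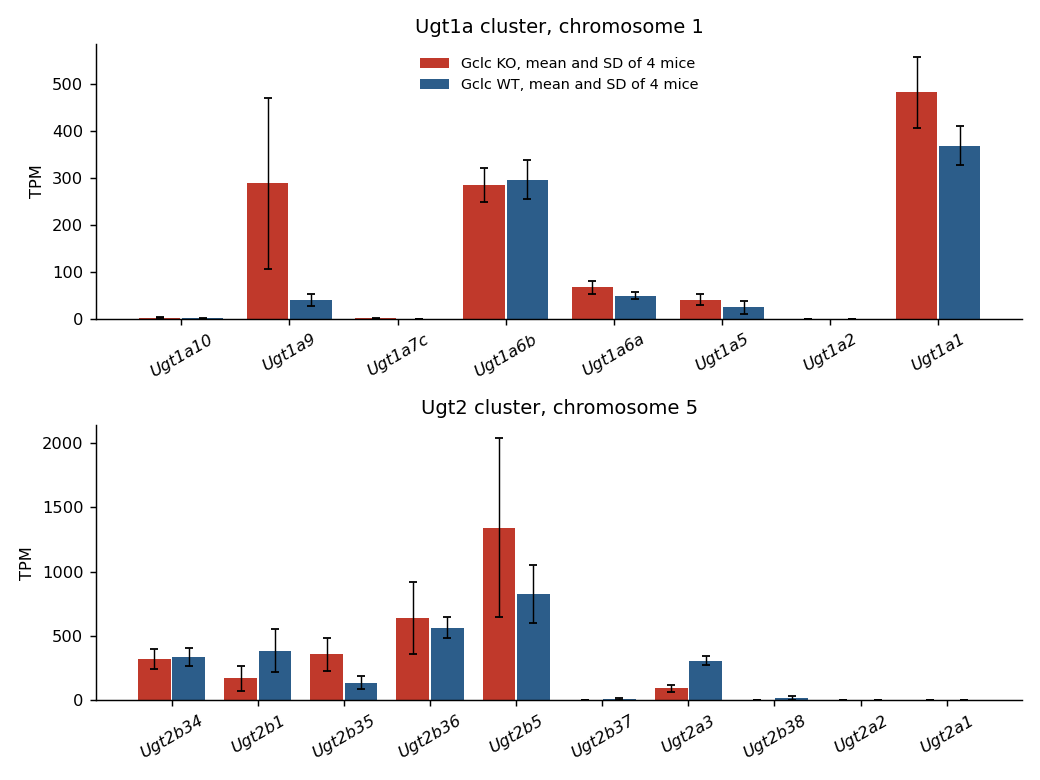
Mean TPM (bars) and SD of 4 mice for the UGT genes of the Ugt1a cluster (top) and the Ugt2 cluster (bottom), in their order along the chromosome, with Gclc KO left of Gclc WT. Ugt2b35, which rose, sits between Ugt2b1 and Ugt2b36, which did not pass the test, and Ugt1a9 is the gene of the Ugt1a cluster with the widest gap between the genotypes.

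In the Ugt2 cluster of chromosome 5, Ugt2b35 rose, Ugt2a3 fell, and Ugt2b1, Ugt2b5, Ugt2b34 and Ugt2b36 did not pass the test. Enzymes of the Ugt2 family conjugate steroids, bile acids and many drugs. Ugt2b35 (chr5:87000860-87013275, plus strand) was measured at 490.4, 213.2, 293.4 and 435.1 TPM in Gclc KO livers, against 125.0, 189.9, 75.3 and 155.7 TPM in Gclc WT livers. The genotypes did not overlap, with Gclc KO 2 closest to the Gclc WT mice. The rise was 2.62-fold (1.39 ± 0.33 on the log2 scale, SE, limma adjusted p = 0.0139). As a share of all UGT transcripts, Ugt2b35 took 8.12%, 7.73%, 8.03% and 7.48% in Gclc KO livers, against 3.36%, 4.46%, 2.45% and 3.74% in Gclc WT livers. Its share was therefore nearly the same in the 4 Gclc KO mice, even though its level varied among them. No stretch of 50 bases of its transcript was shared with another UGT gene.

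Ugt2a3 (chr5:87324972-87337195, minus strand), whose human counterpart conjugates bile acids, was measured at 102.0, 122.0, 54.7 and 90 TPM in Gclc KO livers, against 303.0, 334.5, 261.5 and 335.4 TPM in Gclc WT livers. All Gclc KO mice were far below all Gclc WT mice. The gene was 3.44-fold lower (-1.78 ± 0.23 on the log2 scale, SE, limma adjusted p = 0.000976). Among the 10 genes it was the seventh in Gclc WT livers and the last in Gclc KO livers. The Ugt2b35 level was 4.81, 1.75, 5.36 and 4.83 times the Ugt2a3 level in Gclc KO livers, against 0.413, 0.568, 0.288 and 0.464 times in Gclc WT livers. The order of the 2 genes was thus reversed between the genotypes in every mouse.

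Ugt2b1, whose rat counterpart conjugates bisphenol A, was measured at 280.2, 88.5, 90.7 and 224.8 TPM in Gclc KO livers, against 452.0, 558.9, 169.0 and 358.7 TPM in Gclc WT livers. The genotypes overlapped through Gclc WT 3, which had fewer Ugt2b1 transcripts than Gclc KO 1 and Gclc KO 4. In both genotypes the mice with Xist were lowest. With all 8 mice the log2 fold change was -1.22 (SE 0.47, 95% interval -2.27 to -0.18, limma adjusted p = 0.0759). It passed with Xist status as a covariate (log2 fold change -0.86, adjusted p = 0.00484), in the 5 mice without Xist (-0.84, adjusted p = 0.0205), without Gclc WT 3 (-1.58, adjusted p = 0.0194) and without Gclc KO 1 (-1.52, adjusted p = 0.0459). Ugt2b1 was the third of the 10 genes in Gclc WT livers and the ninth in Gclc KO livers.

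Ugt2b5, the most abundant of the 10 genes in both genotypes, was measured at 1984.5, 503.8, 1039.7 and 1836.0 TPM in Gclc KO livers, against 750.9, 972.0, 544.2 and 1031.6 TPM in Gclc WT livers. Of the Gclc KO mice, 3 were above all Gclc WT mice and Gclc KO 2 was below all of them. The log2 fold change was 0.55 (95% interval -0.38 to 1.49, limma adjusted p = 0.343). Without Gclc KO 2 it was 0.96 (adjusted p = 0.0423), and in the 5 mice without Xist it was 1.07 (adjusted p = 0.00485). Stretches of 50 bases shared with other UGT genes covered 67% of its transcript, most of them with Ugt2b38, so its value is uncertain. Ugt2b38 itself was listed at 0.38, 0, 0 and 0.5 TPM in Gclc KO livers, against 37.6, 14.3, 0.665 and 11.3 TPM in Gclc WT livers. It lay under the filter of 10 TPM and was called lower in the fit with a filter of 1 TPM (log2 fold change -3.13, limma adjusted p = 0.0212). Ugt2b37, next to Ugt2b5, averaged 1.46 ± 0.986 TPM in Gclc KO livers and 6.51 ± 7.72 TPM in Gclc WT livers (SD, n = 4 each) and was not called in that fit (adjusted p = 0.171).

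Ugt2b36 lies beside Ugt2b5 and was measured at 901.7, 302.0, 520.3 and 829.3 TPM in Gclc KO livers, against 516.8, 609.1, 480.4 and 651.1 TPM in Gclc WT livers. The Gclc KO mice lay both above and below the Gclc WT mice. The log2 fold change was 0.06 (95% interval -0.65 to 0.78, limma adjusted p = 0.895), and in the 5 mice without Xist it was 0.55 (adjusted p = 0.03). Both genes were highest in Gclc KO 1 and lowest in Gclc KO 2. Ugt2b5 was 2.2, 1.67, 2 and 2.21 times Ugt2b36 in Gclc KO livers, against 1.45, 1.6, 1.13 and 1.58 times in Gclc WT livers. All Gclc KO ratios were above all Gclc WT ratios, though those of Gclc KO 2 and Gclc WT 2 were close.

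Ugt2b34 was measured at 409.5, 241.2, 277.4 and 352.7 TPM in Gclc KO livers, against 393.2, 395.2, 252.5 and 306.5 TPM in Gclc WT livers. The genotypes overlapped over most of their range. The log2 fold change was -0.08 (95% interval -0.55 to 0.39, limma adjusted p = 0.803), so a change of the size seen in Ugt2b35 lay outside the interval. The ratio of Ugt2b35 to Ugt2b34 was 1.2, 0.884, 1.06 and 1.23 in Gclc KO livers, against 0.318, 0.48, 0.298 and 0.508 in Gclc WT livers, with no overlap.

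The stretches before the starts of the Ugt2 genes are shown to compare the 2 neighbours Ugt2b5 and Ugt2b36 with Ugt2b35, which rose, and Ugt2a3, which fell. They are chr5:87140341-87140450 for Ugt2b5, chr5:87092556-87092665 for Ugt2b36 and chr5:87337196-87337305 for Ugt2a3, all on the minus strand, and chr5:87000750-87000859 on the plus strand for Ugt2b35. Capitals mark the receptor hexamer in Ugt2b5 and Ugt2b36 and the HNF1 hexamer in Ugt2a3.
Ugt2b5: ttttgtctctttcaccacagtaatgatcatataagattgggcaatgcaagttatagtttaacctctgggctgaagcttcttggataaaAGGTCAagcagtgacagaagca
Ugt2b36: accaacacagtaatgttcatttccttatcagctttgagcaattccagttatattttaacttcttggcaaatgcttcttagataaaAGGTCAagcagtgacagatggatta
Ugt2b35: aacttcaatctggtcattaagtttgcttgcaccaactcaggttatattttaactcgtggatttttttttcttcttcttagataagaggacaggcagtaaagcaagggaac
Ugt2a3: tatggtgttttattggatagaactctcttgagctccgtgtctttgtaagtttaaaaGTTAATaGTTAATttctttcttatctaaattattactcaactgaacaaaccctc
Ugt2b5 and Ugt2b36 shared an identical run of 24 bases that includes the receptor hexamer, the longest between any 2 of the 9 members. Ugt2b35 and Ugt2b36 shared 14 bases. Ugt2b35 has this hexamer at -215 to -210, before the stretch shown.

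Ugt3a2, which in humans adds glucose or xylose rather than glucuronic acid, was measured at 453.2, 328.4, 380.6 and 485.2 TPM in Gclc KO livers, against 336.9, 334.4, 443.5 and 327.2 TPM in Gclc WT livers. Within the Gclc WT mice, Gclc WT 3 stood above the other 3, and within the Gclc KO mice, Gclc KO 2 was lowest. The log2 fold change was 0.19 (95% interval -0.18 to 0.55, limma adjusted p = 0.419). In the 5 mice without Xist it was 0.49 (adjusted p = 0.0208). Its neighbour on chromosome 15, Ugt3a1, averaged 60.1 ± 15 TPM in Gclc KO livers and 81.8 ± 7.98 TPM in Gclc WT livers (SD, n = 4 each). Its log2 fold change of -0.47 did not pass the test (limma adjusted p = 0.0689), and it passed without Gclc KO 4 (-0.61, adjusted p = 0.0195) and when rescaled by the trimmed mean of M values (-0.52, adjusted p = 0.0277).

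**Figure D3:**
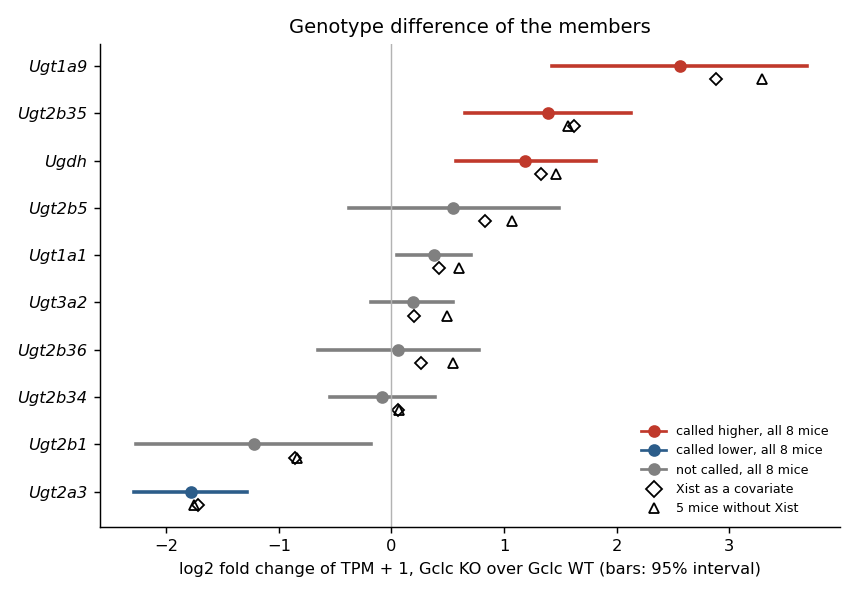
Log2 fold change of TPM + 1, Gclc KO over Gclc WT, for the 10 genes with all 8 mice (circles, with 95% intervals as bars, coloured by the call), with Xist as a covariate (diamonds) and in the 5 mice without Xist (triangles). Ugt1a9, Ugt2b35 and Ugdh lie above 0 and Ugt2a3 below 0 in all 3 analyses, whereas Ugt2b34 changes sign around 0.

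The mice with Xist were the 2 lowest Gclc KO mice for each of the 10 genes except Ugt2a3, and Gclc WT 3 was the lowest Gclc WT mouse for Ugt1a9, Ugt2a3, Ugt2b1, Ugt2b5, Ugt2b34, Ugt2b35 and Ugt2b36. How many of all genes tested had this order was not counted. Of the fixed total per library, acute phase genes held 169692.1 and 122855.4 TPM in Gclc KO 2 and Gclc KO 3. They held 61502.3 and 39829.7 TPM in Gclc KO 1 and Gclc KO 4, and whether this had a part in the order was not tested. With Xist status as a covariate, 6 of the 10 genes were called, 4 higher and 2 lower, against 29.2% of all genes tested in that fit (16.9% higher and 12.3% lower). In the 5 mice without Xist, which were 2 Gclc KO and 3 Gclc WT mice, 9 were called, 7 higher and 2 lower, and Ugt2b34 was the one left out. In those mice 32.6% of all genes tested were called, 23% higher and 9.52% lower, and the median log2 fold change of all genes was 0.175. A test of the difference in genotype effect between mice with and without Xist, added after the data had been seen, called none of the 10 genes and 21 of all genes. The log2 fold change differed in sign for Ugt3a2 (-0.33 with Xist and 0.49 without) and Ugt2b36 (-0.28 with Xist and 0.55 without), and for no other of the 10 genes. With a single Gclc WT mouse in the Xist group, that mouse was assumed to vary like the rest.

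Taken over the family, UGT transcripts were not uniformly higher or lower. The 21 UGT rows summed to 6036.4, 2756.6, 3651.3 and 5814.9 TPM in Gclc KO livers, against 3722.7, 4256.6, 3073.8 and 4161.0 TPM in Gclc WT livers. Gclc KO 2 had the lowest sum of all mice, and Gclc KO 1 and Gclc KO 4 had the highest. The means differed 1.2-fold, at 4564.8 ± 1615.8 TPM in Gclc KO livers and 3803.5 ± 539.1 TPM in Gclc WT livers (SD, n = 4 each), which is within the spread of the Gclc KO mice.

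The make-up of that sum differed between the genotypes for some of its genes. Ugt1a9 took 6.49%, 2.9%, 5.48% and 8.31% of it in Gclc KO livers, against 1.07%, 0.842%, 0.904% and 1.38% in Gclc WT livers. Ugt2a3 took 1.69%, 4.42%, 1.5% and 1.55% in Gclc KO livers, against 8.14%, 7.86%, 8.51% and 8.06% in Gclc WT livers. Ugt2b1 took 4.64%, 3.21%, 2.48% and 3.87% in Gclc KO livers, against 12.1%, 13.1%, 5.5% and 8.62% in Gclc WT livers. For these genes and Ugt2b35 the shares did not overlap between the genotypes, including Ugt2b1, whose levels did. The shares of Ugt2b5, the most abundant gene, overlapped, at 18.3% to 32.9% in Gclc KO livers and 17.7% to 24.8% in Gclc WT livers. Those of Ugt2b36, Ugt1a1, Ugt2b34 and Ugt3a2 overlapped too. In order of mean level, the ranges of neighbours among the 10 genes overlapped throughout the Gclc KO mice. Within single mice, Ugt2b5 was above Ugt2b36, Ugt1a1 above Ugt3a2 and Ugdh above Ugt2b1 in all 4 Gclc KO mice, and the other neighbours changed places in at least 1 of them. In Gclc WT mice the ranges separated Ugt2a3 from Ugt2b35 below it and Ugdh from Ugt1a9 below it.

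**Figure D4:**
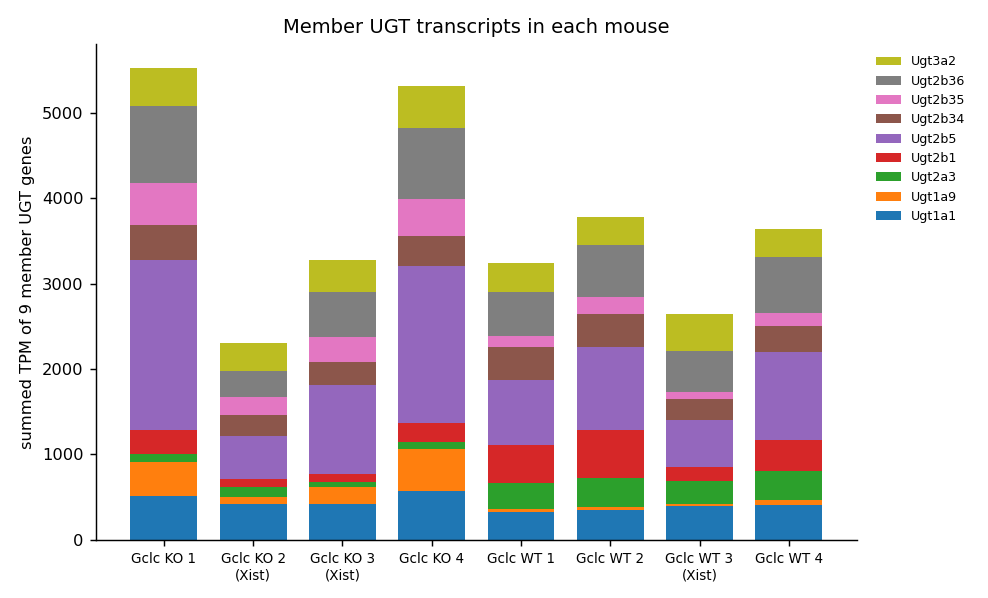
Summed TPM of the 9 UGT genes among the 10, stacked by gene, for each Gclc KO mouse (left) and each Gclc WT mouse (right), with the mice that express Xist marked. Gclc KO 1 and Gclc KO 4 have the tallest stacks at 5528.7 and 5309.8 TPM and Gclc KO 2 the shortest at 2299.0 TPM, and the Ugt1a9 band is wider and the Ugt2a3 band narrower in every Gclc KO mouse.

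Genes that make, move and use UDP-glucose and UDP-glucuronate changed in both directions. Of 13 tested, 3 rose and 1 fell, against 16.4% and 13% of all genes tested, so the share called stood near the background. Slc35d1, which carries UDP-glucuronate into the endoplasmic reticulum, was measured at 79.7, 77.1, 60.3 and 77.3 TPM in Gclc KO livers, against 48.4, 55.2, 38.1 and 43.5 TPM in Gclc WT livers. All Gclc KO mice were higher, in the same direction as Ugdh (log2 fold change 0.66, limma adjusted p = 0.00917). Uggt1, which spends UDP-glucose on marking misfolded glycoproteins, also rose (0.75, adjusted p = 0.00635). The third gene that rose was Entpd5, which clears UDP in the endoplasmic reticulum (0.91, adjusted p = 0.012). The gene that fell was Gys2, the liver glycogen synthase that uses UDP-glucose (-1.31, adjusted p = 0.00967). Ugp2, which makes UDP-glucose itself, was looked up after the data were seen and was not called (-0.26, 95% interval -0.83 to 0.31). Pgm1, a phosphoglucomutase, was named after its values were seen and lay under the filter of 10 TPM, at 6.14, 7.94, 10.3 and 12.4 TPM in Gclc KO livers, against 3.46, 3.95, 7.11 and 2.77 TPM in Gclc WT livers. It was called higher in the fit with a filter of 1 TPM (0.96, limma adjusted p = 0.0297) and was not called without a filter (adjusted p = 0.058).

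Downstream of glucuronate, Rgn and Gulo of the ascorbate branch fell. Of 7 genes tested there, 3 fell and none rose, with 4 not called, against 13% lower and 16.4% higher of all genes tested. Rgn, the gluconolactonase of ascorbate synthesis, was measured at 233.7, 221.8, 57 and 89.8 TPM in Gclc KO livers, against 1025.8, 1240.9, 1315.6 and 1125.1 TPM in Gclc WT livers (log2 fold change -3.19, limma adjusted p = 0.00112). Gulo, which catalyses the last step of ascorbate synthesis and is inactive in humans, was measured at 169.4, 84.9, 93.2 and 126.7 TPM in Gclc KO livers, against 324.6, 318.0, 293.3 and 276.1 TPM in Gclc WT livers (log2 fold change -1.40, limma adjusted p = 0.00198). Both were lower in every Gclc KO mouse, opposite to Ugdh. Rgn was at 0.76, 1.39, 0.243 and 0.271 times the Ugdh level in Gclc KO livers, against 13.1, 9.73, 14.8 and 7.24 times in Gclc WT livers. The third gene that fell, Dcxr, which acts in the branch to pentoses (-0.54, adjusted p = 0.0431), lost its call in 12 of 23 alternatives, among them each of Gclc KO 1, Gclc KO 3, Gclc KO 4, Gclc WT 2, Gclc WT 3 and Gclc WT 4 left out (adjusted p = 0.0552 to 0.0995). Akr1a1, which reduces glucuronate, was not called (0.32, adjusted p = 0.122). It passed as higher in the mice without Xist (0.50, adjusted p = 0.032) and without Gclc KO 2 (0.42, adjusted p = 0.0443). The same held when rescaled by the total without the 50 most abundant genes (0.34, adjusted p = 0.0421) and with the mouse as a random effect (adjusted p = 0.000673).

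Miox, which forms glucuronate from inositol and is best known from kidney, was named after its values were seen. It was measured at 3.32, 5.3, 5.72 and 6.28 TPM in Gclc KO livers, against 0, 0, 0.115 and 0 TPM in Gclc WT livers. It lay under the filter of 10 TPM and was called higher in the fit with a filter of 1 TPM (limma adjusted p = 0.000142). The other kidney markers, Umod, Slc34a1 and Kap, were below 1 TPM in every mouse.

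Of 8 tested transporters that carry glucuronides, 2 exporters rose and 3 uptake carriers fell, against 16.4% and 13% of all genes tested. The exporter Abcg2 (0.31, limma adjusted p = 0.31) and the uptake carrier Slco2b1 (-0.16, adjusted p = 0.502) were not called. Both were named after their values were seen. Abcc4, which exports conjugates across the sinusoidal membrane, was measured at 31.8, 14.1, 29.5 and 43 TPM in Gclc KO livers, against 1.33, 3.15, 3.16 and 1.96 TPM in Gclc WT livers (log2 fold change 3.11, limma adjusted p = 0.00047). Abcc3, a second sinusoidal exporter, was the other that rose and was named after its values were seen (0.67, adjusted p = 0.0216). Without Gclc KO 1, Gclc KO 4 or Gclc WT 1 it was not called (adjusted p = 0.0533 to 0.058). The uptake carrier Slco1b2 was measured at 515.9, 303.6, 287.4 and 372.5 TPM in Gclc KO livers, against 796.9, 709.4, 684.6 and 705.7 TPM in Gclc WT livers (2.01-fold lower, limma adjusted p = 0.00508). The uptake carrier Slco1a1 stayed at 0.165 to 0.388 TPM in Gclc KO livers, against 80.1, 160.6, 0.82 and 142.6 TPM in Gclc WT livers, and was called lower with a wide interval (-7.89 to -2.32 on the log2 scale, adjusted p = 0.0152). Its log2 fold change was -5.11 with all mice, -6.63 without Gclc WT 3 and -4.47 without Gclc WT 2. Slco1a4 was lower too (-1.20, adjusted p = 0.0201), a call that was lost without Gclc KO 1, Gclc WT 2 or Gclc WT 4 (adjusted p = 0.0517, 0.0531 and 0.0509). Abcc2, which exports bilirubin glucuronide into bile, was looked up after the data were seen and was not called (0.25, 95% interval -0.21 to 0.71), though it passed in the mice without Xist (0.56, adjusted p = 0.0456).

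**Figure D5:**
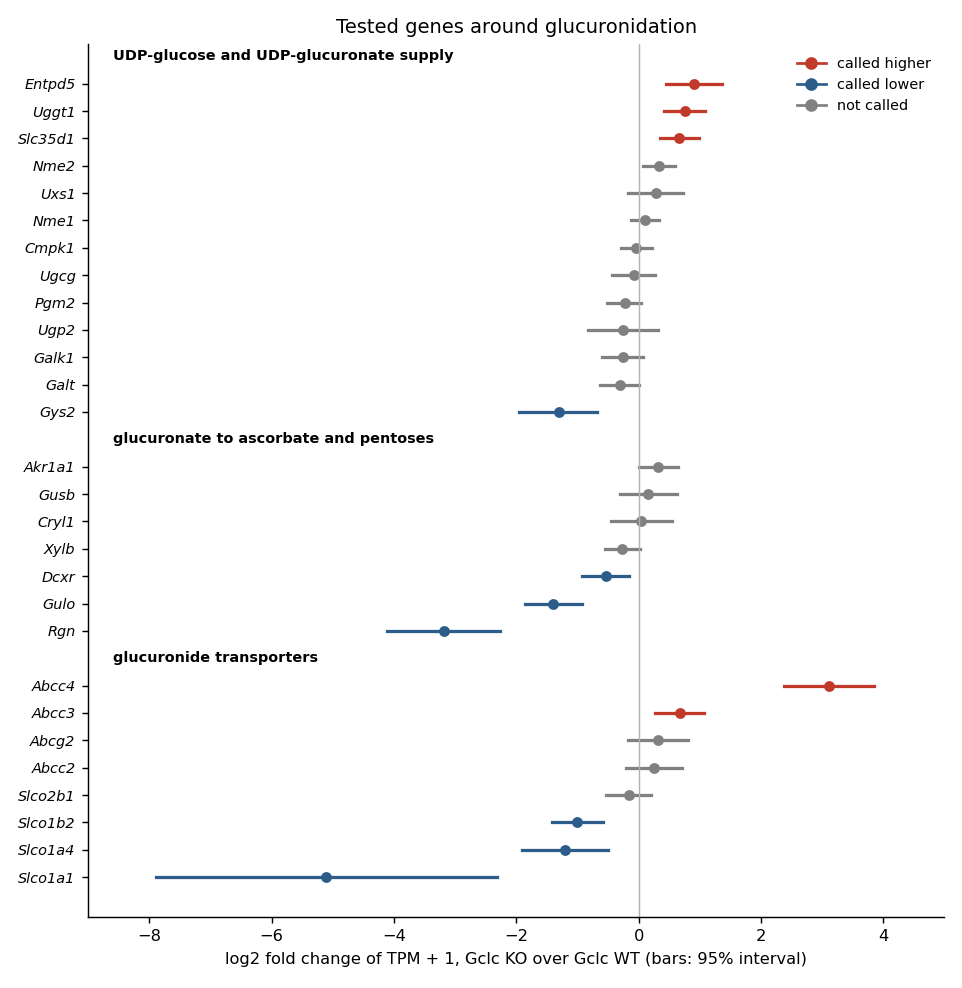
Log2 fold change of TPM + 1, Gclc KO over Gclc WT (circles), with 95% intervals (bars) for the tested genes of UDP-sugar supply, of the branch from glucuronate to ascorbate and pentoses, and of glucuronide transport, coloured by the call. Rgn, Gulo and Dcxr lie below 0, Abcc4 and Abcc3 above 0, and Slco1b2, Slco1a4 and Slco1a1 below 0.

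Genes that supply and handle bilirubin, the substrate of Ugt1a1, rose in 3 of 7 cases and fell in 1. Of all genes tested, 16.4% were called higher and 13% lower. Hmox1, which opens the haem ring, was measured at 159.4, 148.7, 208.6 and 155.0 TPM in Gclc KO livers, against 19.2, 18.3, 26.7 and 13.7 TPM in Gclc WT livers (log2 fold change 3.07, limma adjusted p = 7.11e-05). Blvrb, a biliverdin reductase, and Gstm1, a cytosolic glutathione transferase, rose as well (1.69 and 2.60), and Slco1b2 was the gene that fell. Blvra, another biliverdin reductase (0.38, adjusted p = 0.0508), and Gsta3, another glutathione transferase (-0.68, adjusted p = 0.0673), were not called. Both were named after their values were seen, and Abcc2 was not called either.

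Of 15 tested regulators of UGT genes, 1 rose, 2 fell and 12 were not called, against 16.4% higher and 13% lower of all genes tested. Ppara, the fatty acid receptor, fell in every Gclc KO mouse (log2 fold change -1.14, limma adjusted p = 0.0013). The glucocorticoid receptor Nr3c1 fell by 0.35 on the log2 scale (adjusted p = 0.0458) and lost its call in 15 of 23 alternatives, among them each mouse left out except Gclc WT 4. Keap1 rose (0.43, adjusted p = 0.023), and without Gclc KO 1, Gclc KO 4, Gclc WT 1 or Gclc WT 2 it was not called (adjusted p = 0.0522 to 0.0719). Arnt, the partner of AHR, was not called (0.34, adjusted p = 0.147). The transcripts of Nfe2l2, Nr1i3 and Nr1i2, which encode NRF2, CAR and PXR, were looked up after the data were seen and were not called (0.11, -0.06 and -0.24), though Nr1i2 passed as lower without Gclc WT 1 (-0.44, adjusted p = 0.0458).

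The known target genes of these regulators moved unlike one another. The counts stand beside 16.4% higher and 13% lower of all genes tested. All 8 NRF2 targets tested rose, with a median log2 fold change of 3.02 and Nqo1 at 2.98 (limma adjusted p = 0.000177), Srxn1 at 3.23 and Cbr3 at 4.75. Gstm1 and Hmox1 are in this list and in the bilirubin list. Of 5 tested targets of CAR and PXR, 1 rose and 2 fell, with Cyp3a11 at -3.75 (adjusted p = 0.0021, and -5.01 in the mice without Xist), Cyp2c29 at -1.94 (adjusted p = 0.000806) and Gstm3 at 2.08 (adjusted p = 0.0218), the last of which lost its call without Gclc KO 3 or Gclc WT 1 (adjusted p = 0.051 and 0.0549). Cyp2c55, under the filter of 10 TPM and named after its values were seen, was called lower in the fit with a filter of 1 TPM (-3.10, limma adjusted p = 0.00183). Cyp1a2, the 1 target of AHR above the filter of 10 TPM, fell (-2.42, adjusted p = 0.000904). Tiparp, another AHR target, was named after its values were seen and lay under that filter, at 5.76, 6.14, 7.93 and 7.93 TPM in Gclc KO livers, against 2.66, 2.73, 5.47 and 2.75 TPM in Gclc WT livers. It was called higher in the fit with a filter of 1 TPM (0.88, limma adjusted p = 0.0158), so the AHR targets moved in both directions. Of 5 PPARA targets 2 fell, Fabp1 at -4.85 (adjusted p = 0.00124, and -5.46 without Gclc KO 1) and Acot1 at -2.54 (adjusted p = 0.0134), while Pdk4, also under the filter of 10 TPM and named after its values were seen, was called higher in the fit with a filter of 1 TPM (0.96, adjusted p = 0.0405) and not without a filter (adjusted p = 0.07). Members of the 10 moved both with the NRF2 targets (Ugdh, Ugt1a9, Ugt2b35) and against them (Ugt2a3), and whether NRF2 or another regulator had a part in any of these differences was not tested.

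Sulfation, the other main conjugation reaction of phenols and steroids, gave 3 falls and no rise among 9 genes tested. Of all genes tested, 13% were called lower and 16.4% higher. Sult2a8 (-6.50, limma adjusted p = 0.000426, and -5.90 without Gclc KO 3), Sult5a1 (-2.54, adjusted p = 7.11e-05) and Papss2, which makes the sulfate donor (-1.80, adjusted p = 0.00126), fell. The median log2 fold change of the 9 genes was 0.56. Sult1a1 (0.88, adjusted p = 0.0659), Sult1d1 (0.56, adjusted p = 0.124) and Sult1b1 (-0.30, adjusted p = 0.161), named after their values were seen, were not called. Sult2a2, of the family that sulfates bile acids and steroids, was measured at 135.8, 773.3, 677.7 and 152.9 TPM in Gclc KO livers, against 850.3 TPM in Gclc WT 3 and a listing at 0 in the other Gclc WT livers. In both genotypes the mice with Xist were highest. It was not called with all mice (limma adjusted p = 0.0536), but was called higher with Xist status as a covariate (adjusted p = 0.0224), in the 5 mice without Xist (adjusted p = 1.82e-06), with a replicate block (adjusted p = 0.0214) and without Gclc WT 3 (adjusted p = 4.18e-05). Sult2a1 and Sult3a1, named after their values were seen, were not called (adjusted p = 0.0859 and 0.136) and were called higher in the mice without Xist (adjusted p = 6.25e-05 and 0.000248) and without Gclc WT 3 (adjusted p = 0.00119 and 9.1e-05). The donor genes of the 2 reactions thus differed in direction, with Ugdh higher and Papss2 lower in every Gclc KO mouse.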

How the data were processed

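Livers of 4 Gclc KO and 4 Gclc WT mice were profiled in 32 RNA-seq libraries, made with a directional mRNA kit. The authors deposited gene values read here as TPM, scaled to a fixed total per library. The table's own name speaks of normalized counts and no source used here gives the unit. The values were taken as TPM because libraries total 999315 to 999534 and low values share no common step, the commonest value holding 1.8% to 2.39% of those below 1 TPM, whereas whole reads scaled without gene length would pile up on the value of 1 read. Comparisons of level between genes rest on this reading. Read files were made with bcl2fastq 2.2 according to the submitters' processing notes. The aligner, quantifier and genome build were not given in the sources used here. Because TPM hold no sequencing depth, it stays unknown and counting intervals are not given. The labels tell the 4 libraries of a mouse apart by batch and run, whose meaning is not given. They were treated as technical repeats and averaged, and their coefficient of variation for the 10 genes had a median of 3.12%. The median SD of a gene on the log2 scale was 0.119 among the libraries of a mouse, 0.201 among Gclc KO mice and 0.175 among Gclc WT mice.

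The 5893 genes that averaged 10 TPM or more across mice were tested on log2(TPM + 1), two-sided and without covariates, using limma 3.58.1 (R 4.3.3) and its trend of variance with mean. Called means a Benjamini-Hochberg adjusted p under 0.05 over all genes tested. Fold changes are on the TPM + 1 scale, which understates low genes. The 75 repeated symbol rows held identical values and were left out. Besides the 10 genes and Gclc, the text names the sex check genes, other UGT genes above a mean of 1 TPM and, per gene list, up to 4 with the smallest adjusted p, and it says where another gene was named after its values were seen. The members and lists were chosen with earlier results of these data known, and the counts of the UDP-sugar list leave out 2 further genes, which are not reported here. Promoter windows are from RefSeq (GRCm38.p6) and gene positions and transcripts from GENCODE M21 (GRCm38), matched by symbol, and the authors' build may differ. The 23 alternatives changed the pseudocount, filter, scaling, variance model, batch, Xist status, replicate block or library model, or left out a mouse.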

Additional observations from a re-analysis of the deposited data

Results flagged for a closer look

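Within each genotype of 4 mice, single mice that stood far from the other 3 were looked for on the log2(TPM + 1) scale. The search covered 58 items, which were summed levels and genes. The sex check genes and genes named after their values were seen, such as Sult2a1 and Sult3a1, were not searched. Of 116 groups examined, 8 had such a mouse, and chance alone gives about 1 in 20. Among the 10 genes it was Ugt3a2, at 8.80 in Gclc WT 3 while its group mates had 8.36 to 8.40, and the summed Ugt3 level, which is the same value (8.80), repeats it. Gclc KO 3 was low for Slc35d1, at 5.94 against 6.29 to 6.33 in the other Gclc KO mice, and for Dcxr, at 5.81 against 6.46 to 6.50.

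Gclc WT 3, the Gclc WT mouse with Xist, accounted for the others. Slco1a1 was at 0.86 in it and at 6.34 to 7.34 in the remaining 3. Cyp1a2 was at 8.47 against 9.35 to 9.40, and Sult2a8 at 8.05 against 9.74 to 9.89. Sult2a2 was at 9.73 in this mouse and listed at 0.00 in the other 3. The cause was not tested.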

How the results depend on the processing

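Ugdh, Ugt1a9, Ugt2a3 and Ugt2b35 kept their direction and call in each of the 23 alternatives. The number of the 10 genes called was 4, and it was 9 in the mice without Xist and 7 with the mouse as a random effect over libraries, where 2165 of the 5893 genes tested were called. That model took the same correlation between libraries of a mouse for all genes. Genes that vary more between mice than most can thus get too small a p in it. With a replicate block 5 of the 10 genes were called, Ugt2b1 being added (adjusted p = 0.0332), and 1516 genes were called against 1732. The labels do not say whether mice of the same number belong together. Animal numbers in the library names lie close to each other within each such pair, and their meaning is not given. Deviations correlated at 0.0877, -0.185, 0.413 and 0.334 for the 4 pairs, and 4 of 8 mice correlated best with the mouse of their own number. These were Gclc KO 3 with Gclc WT 3 and Gclc KO 4 with Gclc WT 4, each pair counted from both sides. These values do not settle whether the mice were paired. Leaving out 1 mouse gave 1018 to 1803 called genes, with 1018 without Gclc WT 2. Calls higher and lower numbered 967 and 765, against 972 and 1049 by the trimmed mean of M values, 958 and 1060 by the median of ratios, 1251 and 847 without the 50 most abundant genes and 1358 and 561 in mice without Xist, where the median of all genes moved to 0.175. Ugt2b34 was at 0.06 with Xist as a covariate, at 0.07 without Xist mice and at -0.21 to 0.05 with 1 mouse left out. Ugt2b36 was at -0.14 to 0.38 and Ugt1a6b at -0.13 to 0.03 with 1 mouse left out, and Ugt1a6b at 0.02 with the covariate. Counting every row of a family gave 1170.4 TPM for Ugt1a in Gclc KO livers, 783.0 TPM for Ugt1a in Gclc WT livers and 442.3 TPM for Ugt3 in Gclc WT livers, because more genes enter the sum. Ugp2 was at -0.40 to 0.01 and Nr1i3 at -0.21 to 0.09 with 1 mouse left out, and Nr1i3 at 0.03 with the covariate and 0.26 without Xist mice. The cause of these reversals was not tested. Of 50 other genes followed through the alternatives, 28 kept their direction and call throughout. Named genes averaging under 10 TPM were fitted only with a filter of 1 TPM or none, and there Pgm1 and Pdk4 lost their call without a filter while Miox, Tiparp, Cyp2c55 and Ugt2b38 kept it.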
